A study of Mus musculus with 6 samples.

Results

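The transcription factor NRF2, the genes it is known to switch on and the enzymes that remove superoxide and peroxides were examined in the gastrocnemius muscle of mice with C26 tumors. The 10 genes were chosen by name, as Nfe2l2, Nqo1, Hmox1, Gclc, Gclm, Txnrd1, Sod1, Sod2, Cat and Gpx3, and all 10 were found by their Entrez identifier among the 13363 genes listed. The selection rule itself uses these names and no measured value, but the genes were chosen with earlier results of these data known.

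Total RNA of the gastrocnemius, the large calf muscle, was sequenced in 3 samples of Balb/c mice labelled C26 and 3 labelled Control. All mice were male and bought at 6 weeks of age per the methods of the study. The methods describe the C26 mice as carrying subcutaneous xenografts of the C26 murine adenocarcinoma line in the right flank. The results of the study describe the controls as bearing no tumor. C26 is a single cell line grown outside the colon, and loss of body weight and muscle in these mice is a model of cancer cachexia. The values are FPKM, the fragments assigned to a gene divided by the length of its transcript and by the mapped reads of the library. Fold changes were computed after the FPKM of each muscle had been rescaled to a common sum (TPM) and by TMM factors, and are given as log2(value + 1) differences, C26 minus control, with their standard error (SE). A gene was called when limma gave a Benjamini-Hochberg adjusted p under 0.05 over all listed genes. No read counts were used here and the sequencing depth is unknown. Nothing in the labels states that the 3 replicates were separate mice, and the p-values measure the spread between these samples.

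NRF2, encoded by Nfe2l2, is a transcription factor held at a low level by KEAP1, an adaptor that brings it to a ubiquitin ligase. When electrophiles or oxidants modify KEAP1, NRF2 persists, pairs with a small MAF protein and binds antioxidant response elements in front of genes for glutathione synthesis, thioredoxin reduction, quinone reduction and heme breakdown. BACH1, a heme-sensing repressor, competes for the same elements. Superoxide made by working muscle is turned into hydrogen peroxide by superoxide dismutases, and catalase, glutathione peroxidases and peroxiredoxins then remove the peroxide. NRF2 is regulated to a large part through the stability of the protein, which RNA levels do not show.

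Markers of the labelled tissue were abundant, and all 12 skeletal muscle markers examined were listed. Their summed FPKM was 62880 to 98780 in the C26 muscles against 139600 to 148800 in the controls, and Tnnc2 and Pvalb were the 2 called, both lower. The sum of all FPKM was 531061 to 585169 in the C26 muscles against 626992 to 688300 in the controls, so rescaling to a common sum raised the C26 values relative to the controls. C26 replicate 3 stood apart from its group in Mb, the myoglobin gene, with 4906 FPKM against 275 and 74.0. Control replicate 3 stood apart in the summed level of 10 adipocyte markers, with 755 FPKM against 5581 and 2705 in the other controls and 309 to 488 in the C26 muscles. It also stood apart in genes of lymphocytes and other blood-derived immune cells, named here after their values were seen. Ptprc, the pan-leukocyte antigen CD45, measured 40.1 FPKM there and 0.230 to 0.810 elsewhere, Cd79b of the B cell receptor 134 and 0.050 to 0.820, and Cd74 of antigen presentation 1143 and 3.79 to 53.6. Their part in the values of the 10 genes was not tested, and each of the 10 genes kept its call, or its lack of one, without Control replicate 3. Of the listed genes, 2589 (19.4%) were called higher and 1932 (14.5%) lower in C26. On the FPKM as deposited the split turned, with 1678 higher and 2504 lower. In such bulk samples, fewer cells of a type and less RNA per cell cannot be told apart.

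Because NRF2 acts through sites near gene starts, windows from 250 bases before to 50 after annotated transcript starts were searched for the core of the antioxidant response element, TGACNNNGC, and for the FoxO motif GTAAACA, a motif of atrophy-related transcription factors, each on both strands. The windows are RefSeq sequence of build GRCm38.p6 and were available for 8 of the 10 genes, not for Hmox1 and Gclc. The element core was found once each at Nfe2l2, Gclm, Txnrd1 and Sod1, that is in 4 of the 10 windows of the 8 genes, and it is present in 4071 of all 32851 windows (12.4%). GTAAACA was in no window of the 8 genes and in 3.65% of all windows. For the 4 genes with a match the bases before the first start annotated in the window are printed, 5′ to 3′ on the strand of the gene, with the matched bases in capitals. The lines give chr2:75704664-75704913 of the minus strand for Nfe2l2 and, on the plus strand, chr3:122245307-122245486 for Gclm, chr10:82858956-82859178 for Txnrd1 and chr16:90220512-90220753 for Sod1.
Nfe2l2: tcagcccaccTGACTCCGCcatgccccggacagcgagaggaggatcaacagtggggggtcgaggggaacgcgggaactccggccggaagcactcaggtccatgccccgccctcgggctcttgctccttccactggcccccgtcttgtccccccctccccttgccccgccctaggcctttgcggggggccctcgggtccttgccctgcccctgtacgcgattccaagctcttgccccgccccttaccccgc
Gclm: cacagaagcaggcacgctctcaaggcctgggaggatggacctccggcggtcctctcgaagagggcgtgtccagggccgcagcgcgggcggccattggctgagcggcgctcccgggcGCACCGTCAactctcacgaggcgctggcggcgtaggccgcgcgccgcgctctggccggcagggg
Txnrd1: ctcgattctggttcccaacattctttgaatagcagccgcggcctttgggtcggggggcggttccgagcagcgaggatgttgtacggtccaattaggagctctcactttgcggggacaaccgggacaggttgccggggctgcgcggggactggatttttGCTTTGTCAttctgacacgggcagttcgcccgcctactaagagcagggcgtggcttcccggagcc
Sod1: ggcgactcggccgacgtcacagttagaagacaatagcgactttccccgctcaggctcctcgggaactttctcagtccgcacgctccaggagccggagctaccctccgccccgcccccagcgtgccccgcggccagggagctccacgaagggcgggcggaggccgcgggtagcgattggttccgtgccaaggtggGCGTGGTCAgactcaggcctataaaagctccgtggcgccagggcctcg
The match began 240 bases before the transcript start of its window in Nfe2l2, 134 in Gclm, 92 in Txnrd1 and 56 in Sod1. RefSeq places the start of the gene Gclm upstream of that transcript start, 64 bases after the first base of the match. It lay on the strand of the gene in Nfe2l2 and on the opposite strand in the other genes, where it reads as GCNNNGTCA. The Txnrd1 window belongs to an internal start, downstream of the first one annotated for that gene. A match of these letters is a description of the sequence and not a measured binding site.

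In the C26 muscles 6 of the 10 genes were higher, namely Gclm, Gpx3, Sod1, Hmox1, Nfe2l2 and Gclc, where 19.4% of all listed genes were called higher and 14.5% lower. The other 4, Txnrd1, Cat, Sod2 and Nqo1, were not called. By limma 0 of the 10 were called lower, 0 at an unadjusted p under 0.05, and 0 by an ordinary linear model. The median log2 fold change of the 10 genes was 0.84, against -0.046 over all listed genes. None passed a fold of 4 together with the adjusted p, a rule met by 1.76% of all genes in the higher direction and by 1.73% in the lower. On the rescaled values, all 3 C26 muscles lay above all 3 controls for 8 of the 10 genes and the groups overlapped for Nqo1 and Sod2. Over all listed genes such a separation was seen in 27.0% with C26 higher and in 26.5% with C26 lower. Without C26 replicate 1 or without Control replicate 1, 4 of the 10 genes were called higher, while the calls over all genes fell to 1127 and 1151 higher.

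**Figure D1:**
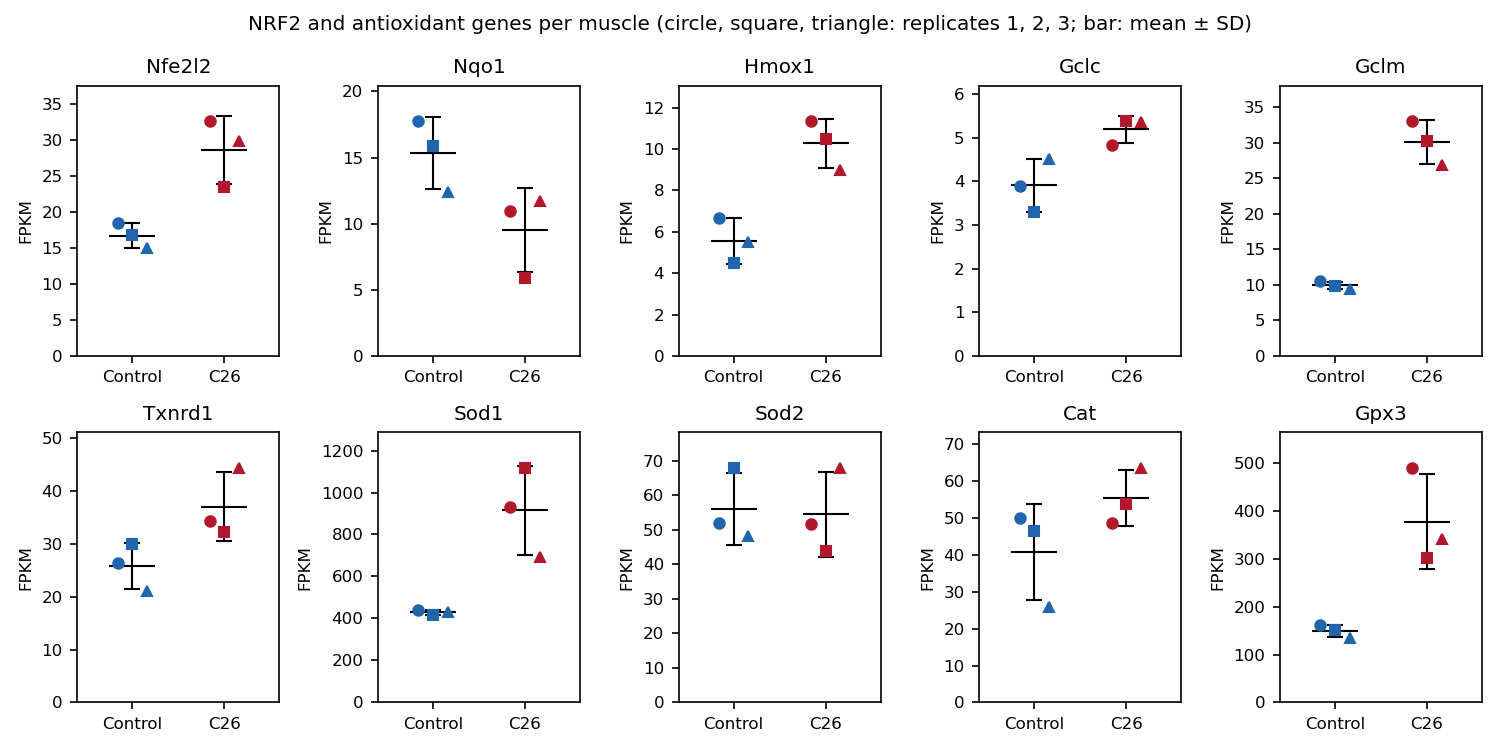
FPKM of the 10 genes in each muscle, with the control muscles in blue and the C26 muscles in red, replicates 1, 2 and 3 as circle, square and triangle, and bars for the mean ± SD of 3 muscles. Gclm, Sod1, Gpx3 and Hmox1 show C26 values above all control values with a wide gap, Nqo1 values lie lower in C26, and Sod2 values overlap.

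**Figure D2:**
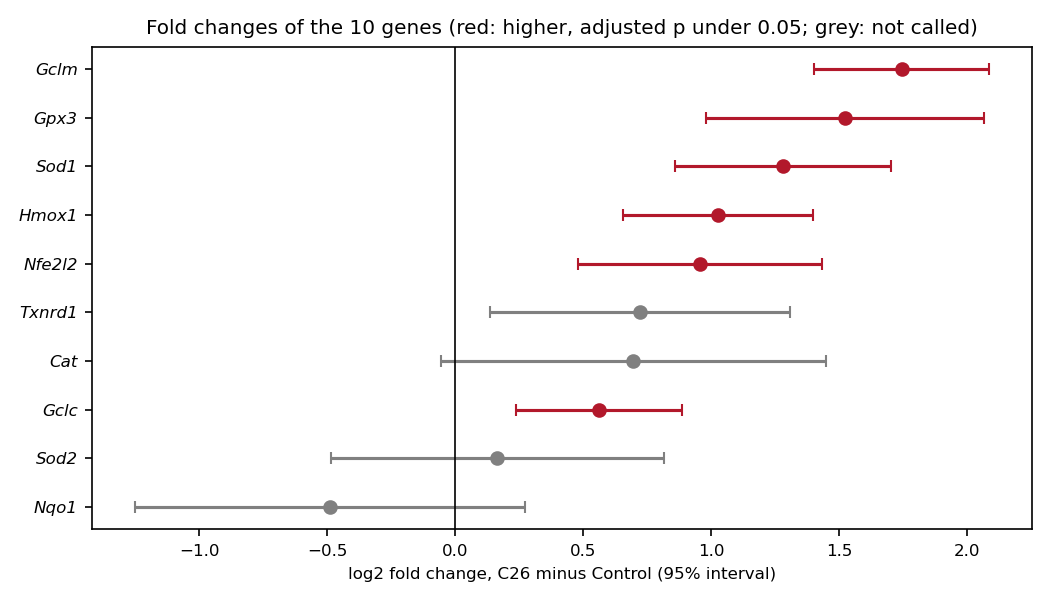
Log2 fold changes of the 10 genes, C26 minus control, from limma on log2(rescaled value + 1), with 95% confidence intervals. Genes called higher are red and genes not called are grey, and the estimates run from -0.49 for Nqo1 to 1.75 for Gclm.

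Nfe2l2 (Entrez 18024, chromosome 2), the gene of NRF2 itself, measured 32.6, 23.4 and 29.9 FPKM in C26 replicates 1, 2 and 3 and 18.4, 16.7 and 15.0 in the control replicates. The means were 28.6 ± 4.73 and 16.7 ± 1.72 (SD, n = 3), and every C26 muscle lay above every control. The gene rose by 0.96 (SE 0.20) on the log2 scale, a 1.94-fold change, with an adjusted p of 0.0147 by limma. It missed the threshold without C26 replicate 1 (adjusted p = 0.0621) and without Control replicate 1 (adjusted p = 0.0511), and also under quantile normalization (0.0623) and with an ordinary linear model (0.0507). The genes whose log2 values followed Nfe2l2 most closely over the 6 muscles were Spns1, Klhl7 and Lrrc14b, with Pearson r of 0.998, 0.997 and 0.995. These correlations are a description over 6 points that fall into both groups.

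Glutathione, the main small thiol of the cell, is made in a rate-limiting step by glutamate-cysteine ligase, which has a catalytic subunit, GCLC, and a modifier subunit, GCLM, that makes the catalytic subunit more efficient. Gclm (Entrez 14630, chromosome 3) measured 33.1, 30.3 and 26.9 FPKM in the C26 muscles against 10.5, 9.90 and 9.43 in the controls. It showed the largest change of the 10 genes, with means of 30.1 ± 3.07 and 9.94 ± 0.526 FPKM (SD, n = 3) and a log2 fold change of 1.75 (SE 0.14), or 3.35-fold. Its adjusted p was 0.00172 by limma, and it was called with each replicate left out and under each alternative processing. Gclc (Entrez 14629, chromosome 9) measured 4.84, 5.38 and 5.37 FPKM in C26 against 3.89, 3.31 and 4.52 in control muscles. The groups did not overlap, but the gap was small beside that of Gclm. The log2 fold change of Gclc was 0.56 (SE 0.14), or 1.48-fold, with an adjusted p of 0.0224 by limma. This call was lost without C26 replicate 1, C26 replicate 2, Control replicate 1 or Control replicate 2, with adjusted p-values of 0.0617, 0.0664, 0.0829 and 0.0643, and on the FPKM as deposited (0.0926).

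The ratio of the modifier to the catalytic subunit was formed within each muscle after the values had been seen and is given without a test. It was 6.83, 5.63 and 5.01 in the C26 muscles against 2.69, 2.99 and 2.09 in the controls. The lowest C26 ratio lay above the highest control ratio, and the means were 5.82 ± 0.923 and 2.59 ± 0.461 (SD, n = 3). The ratio is of transcripts and not of subunits.

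Heme oxygenase 1, encoded by Hmox1, opens the heme ring and releases iron, carbon monoxide and biliverdin. Hmox1 (Entrez 15368, chromosome 8) measured 11.3, 10.5 and 8.99 FPKM in C26 against 6.68, 4.48 and 5.51 in control muscles. All C26 values were above the controls, with means of 10.3 ± 1.19 and 5.56 ± 1.10 (SD, n = 3). The gene rose by 1.03 (SE 0.15) on the log2 scale, 2.04-fold, with an adjusted p of 0.0065 by limma, and it was called with each replicate left out.

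Thioredoxin reductase 1, encoded by Txnrd1, is a selenoprotein that keeps cytosolic thioredoxin reduced. Txnrd1 (Entrez 50493, chromosome 10) measured 34.4, 32.3 and 44.4 FPKM in C26 against 26.3, 29.9 and 21.1 in control muscles. The groups did not overlap, but C26 replicate 2 and Control replicate 2 were close. The log2 fold change was 0.72 (SE 0.24), a ratio of 1.65 with a 95% interval of 1.10 to 2.48, and the adjusted p of 0.061 by limma missed the threshold. It was called without Control replicate 2 (adjusted p = 0.0491) and when the TMM factors were left out (0.0339).

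Nqo1 encodes a quinone reductase that spares cells the radicals of quinone cycling and is among the genes most used as readouts of NRF2. Nqo1 (Entrez 18104, chromosome 8) measured 10.9, 5.90 and 11.7 FPKM in the C26 muscles against 17.8, 15.9 and 12.4 in the controls. On the FPKM scale every C26 muscle lay below every control, with means of 9.52 ± 3.16 and 15.3 ± 2.74 (SD, n = 3). After rescaling, the groups overlapped, since C26 replicate 1 and C26 replicate 3 stood at 19.4 and 22.2 and Control replicate 3 at 17.9. The log2 fold change was -0.49 (SE 0.32), a ratio of 0.712, with a 95% interval of -1.25 to 0.27 on the log2 scale. Its adjusted p was 0.263 by limma, and Nqo1 was called neither way in any of the alternatives or with any replicate left out. With single replicates left out the estimate ran from -0.68 to -0.17, the latter without C26 replicate 2. Nqo1 was the sole gene of the 10 with a negative estimate.

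Superoxide dismutase 1, encoded by Sod1, holds copper and zinc and works mainly in the cytosol. Sod1 (Entrez 20655, chromosome 16) had the highest level per transcript length of the 10 genes in both groups, with 933, 1118 and 693 FPKM in C26 against 441, 416 and 429 in control muscles. The controls were nearly level, at 429 ± 12.4 (SD, n = 3), and the C26 muscles spread more widely, at 915 ± 213. Sod1 rose by 1.28 (SE 0.18) on the log2 scale, 2.43-fold, with an adjusted p of 0.00533 by limma, and it was called with each replicate left out.

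Superoxide dismutase 2, encoded by Sod2, is the manganese enzyme of the mitochondrial matrix. Sod2 (Entrez 20656, chromosome 17) measured 51.6, 44.0 and 68.0 FPKM in C26 against 52.0, 68.0 and 48.3 in control muscles. The groups overlapped, with means of 54.5 ± 12.3 and 56.1 ± 10.5 (SD, n = 3). The log2 fold change was 0.17 (SE 0.27), a ratio of 1.12 with a 95% interval of 0.715 to 1.76, and the adjusted p was 0.652 by limma. The sign of the estimate turned on the FPKM as deposited (-0.048) and under quantile normalization (-0.24). A change of the size seen for Sod1 lay outside this interval. The ratio of Sod1 to Sod2 within a muscle, formed after the values had been seen and not tested, was 18.1, 25.4 and 10.2 in C26 and 8.48, 6.13 and 8.87 in controls. C26 replicate 3 lay nearest to the controls.

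Gpx3 encodes a secreted glutathione peroxidase that contains selenium and is known from blood plasma. Gpx3 (Entrez 14778, chromosome 11) measured 491, 301 and 342 FPKM in the C26 muscles against 162, 151 and 136 in the controls. It was the second in level of the 10 genes in both groups, and the lowest C26 muscle stood well above the highest control. The means were 378 ± 99.8 and 150 ± 13.0 FPKM (SD, n = 3). The gene rose by 1.52 (SE 0.23) on the log2 scale, 2.87-fold, with an adjusted p of 0.00639 by limma, and it was called with each replicate left out.

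Catalase, encoded by Cat, breaks down hydrogen peroxide in peroxisomes. Cat (Entrez 12359, chromosome 2) measured 48.6, 53.9 and 63.6 FPKM in C26 against 49.99, 46.4 and 25.8 in control muscles. The FPKM of the groups overlapped, and Control replicate 3 was far below the other controls. On the rescaled values the C26 muscles stood at 86.1, 92.3 and 120 and the controls at 74.9, 78.6 and 37.3, without overlap. The log2 fold change was 0.70 (SE 0.31), a ratio of 1.62 with a 95% interval of 0.964 to 2.73, and the adjusted p of 0.127 by limma missed the threshold. Cat was not called in any of the alternatives or with any replicate left out. Its log2 fold change ran from 0.36 to 0.88 with single replicates left out and was 0.30 under quantile normalization.

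The order of the mean FPKM in the controls was Sod1, Gpx3, Sod2, Cat, Txnrd1, Nfe2l2, Nqo1, Gclm, Hmox1 and Gclc. In the C26 muscles it was Sod1, Gpx3, Cat, Sod2, Txnrd1, Gclm, Nfe2l2, Hmox1, Nqo1 and Gclc. Among neighbours in the order, the ranges of mean ± SD overlapped in the controls for Sod2 and Cat, Cat and Txnrd1, Nfe2l2 and Nqo1, and Hmox1 and Gclc. In C26 they overlapped for Cat and Sod2, Sod2 and Txnrd1, Txnrd1 and Gclm, Gclm and Nfe2l2, and Hmox1 and Nqo1. Gclm stood below Nqo1 in every control and above it in every C26 muscle.

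The proteins that regulate NRF2 and share its sites were examined next, with 16 of 18 named genes listed. Of the 16, 11 were called higher by limma, 0 lower (1 at an unadjusted p under 0.05, and 0 by an ordinary linear model) and 5 neither, beside 19.4% higher and 14.5% lower over all genes. The median log2 fold change was 0.75. Keap1, the adaptor that holds NRF2 down, measured 78.7, 80.8 and 61.2 FPKM in C26 against 35.4, 37.3 and 30.6 in control muscles, a rise of 1.29 on the log2 scale with an adjusted p of 0.00533 by limma. Bach1, the repressor of the same elements, measured 13.2, 12.8 and 17.5 FPKM in C26 against 4.14, 4.02 and 3.17 in control muscles, a rise of 1.97 with an adjusted p of 0.00322. Both therefore rose with Nfe2l2. The small MAF proteins have no activation domain of their own and serve as partners of NRF2 and of BACH1. Maff measured 64.7, 45.7 and 39.3 FPKM in C26 against 1.34, 2.02 and 1.56 in control muscles, the largest rise of the list at 4.66 on the log2 scale, with an adjusted p of 0.000822. Mafk measured 47.5, 37.7 and 50.1 FPKM in C26 against 6.45, 5.57 and 8.23 in control muscles, a rise of 2.85 with an adjusted p of 0.000964. Mafg was also called higher.

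Sqstm1, named here after its values were seen, encodes the autophagy adaptor p62, which binds KEAP1 and is itself a target of NRF2. It measured 1415, 1137 and 989 FPKM in C26 against 406, 384 and 336 in control muscles, a rise of 1.86 on the log2 scale with an adjusted p of 0.00259 by limma. Its C26 values were above the level of Sod1 in every C26 muscle. Other called genes of the list included Cul3, the scaffold of the KEAP1 ligase, Btrc and Gsk3b of a second degradation route, and Ep300, a coactivator, all higher. Without C26 replicate 1 or without Control replicate 1, 7 of the 16 regulators were called higher, and without C26 replicate 3 there were 11 higher and 2 lower. The calls over all genes were 1127 higher and 669 lower, 1151 and 726, and 3311 and 2160 in these leave-outs.

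The ratios of Nfe2l2 to its regulators were formed within each muscle after the values had been seen and are given without a test. Nfe2l2 to Keap1 was 0.414, 0.290 and 0.488 in C26 and 0.521, 0.449 and 0.490 in control muscles, with overlap between the groups. Nfe2l2 to Bach1 was 2.48, 1.83 and 1.71 in C26 and 4.45, 4.16 and 4.73 in controls, without overlap.

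**Figure D3:**
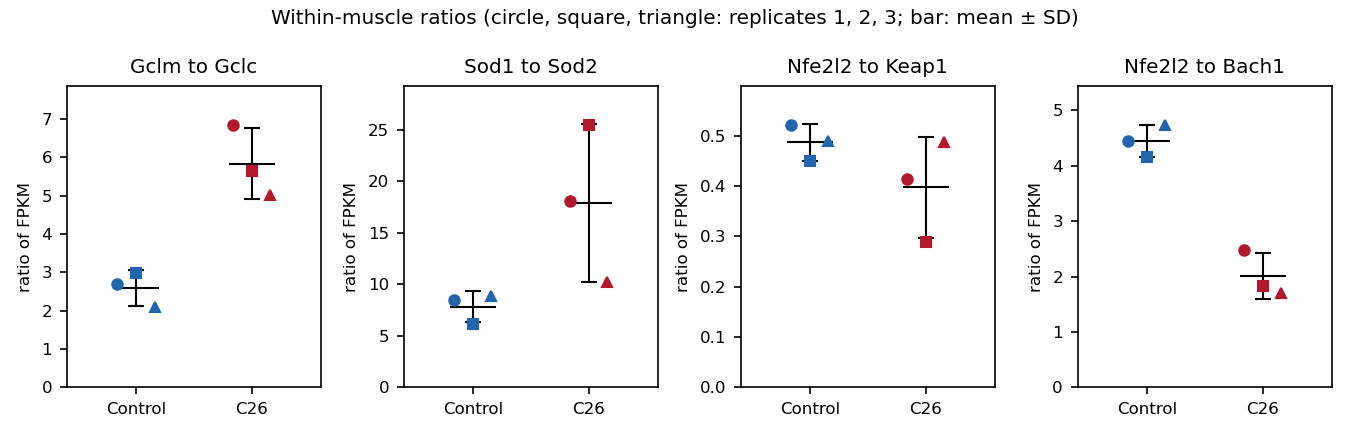
Ratios of FPKM within each muscle, with the control muscles in blue, the C26 muscles in red, replicates 1, 2 and 3 as circle, square and triangle, and bars for the mean ± SD of 3 muscles. Gclm to Gclc was higher in every C26 muscle than in every control, Nfe2l2 to Bach1 was lower in every C26 muscle, and Nfe2l2 to Keap1 overlapped.

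Other genes commonly given as NRF2 targets, for glutathione reduction and transport, NADPH supply and conjugation, were listed for 32 of 38 named. Of these, 6 were called higher, 10 lower and 16 neither, with a median log2 fold change of -0.30, and the shares over all genes were 19.4% higher and 14.5% lower. This list held calls in both directions. Gsr encodes glutathione reductase, which returns oxidized glutathione to its reduced form with NADPH. Gsr measured 16.3, 15.6 and 14.8 FPKM in C26 against 4.87, 7.26 and 3.78 in control muscles, a rise of 1.69 on the log2 scale with an adjusted p of 0.00742 by limma. Abcc4, an exporter of organic anions, rose by 1.63 with an adjusted p of 0.00685, and Srxn1, the sulfiredoxin that restores overoxidized peroxiredoxins, rose by 1.61 with an adjusted p of 0.0148. Srxn1 missed the threshold without Control replicate 1 (adjusted p = 0.0555). Slc3a2, Osgin1 and Abcc1 were the others called higher.

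The pentose phosphate pathway is a source of NADPH. The 4 of its enzymes in this list were called lower, as were 14.5% of all genes, and this grouping was made after the values were seen. Of the 10 listed cytosolic glutathione S-transferases, 3 were called lower and 7 neither way, of which 5 had positive estimates. Gstt1 measured 2.52, 1.97 and 2.61 FPKM in C26 against 27.1, 17.3 and 15.7 in control muscles, a change of -2.57 on the log2 scale with an adjusted p of 0.00218 by limma. Gsta4, the transferase that conjugates the lipid aldehyde hydroxynonenal, changed by -2.49 with an adjusted p of 0.0133, and missed the threshold without C26 replicate 1 (0.0557) and without Control replicate 1 (0.0539). Tkt, the transketolase, measured 5.11, 3.78 and 3.52 FPKM in C26 against 28.2, 67.3 and 16.2 in control muscles, a change of -2.57 with an adjusted p of 0.0147. Its controls were widely spread, and the call was lost without C26 replicate 1, C26 replicate 2 or Control replicate 1, with adjusted p-values of 0.0502, 0.0518 and 0.0517. Without Control replicate 2, its highest muscle, the log2 fold change was -1.97. The other pentose phosphate enzymes of the list are named after their values were seen. G6pdx, the glucose-6-phosphate dehydrogenase that opens the pathway, measured 1.36, 1.70 and 1.36 FPKM in C26 against 9.15, 6.57 and 4.92 in control muscles, a change of -1.64 with an adjusted p of 0.00592. Taldo1, the transaldolase, changed by -1.06 with an adjusted p of 0.0106. Pgd, the phosphogluconate dehydrogenase that also makes NADPH, changed by -0.91 with an adjusted p of 0.0204, and kept its call without C26 replicate 3 or Control replicate 3 but not without any other replicate. Gstm4, Ephx1, Ptgr1 and Akr1b8 were the other genes called lower.

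The summed FPKM of 10 adipocyte markers was 309 to 488 in C26 and 755 to 5581 in control muscles, with 6 of the 10 called lower. The 10 fibroblast markers summed to 297 to 464 FPKM in C26 against 680 to 996 in control muscles, with 5 called lower. The share called lower over all genes was 14.5%. Adipocytes are rich in pentose phosphate enzymes, and the part of these cells in the lower values was not tested. Without Control replicate 1, 3 of the 32 other targets were called higher and 5 lower. Without C26 replicate 1 there were 5 higher and 5 lower, and without C26 replicate 2 there were 5 higher and 6 lower, while the calls over all genes fell to 1151 higher and 726 lower, 1127 and 669, and 1528 and 946 in these leave-outs.

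The further enzymes of peroxide, thiol and superoxide chemistry were listed for 32 of 33 named, of which 6 were called higher, 7 lower and 19 neither, with a median log2 fold change of 0.061. Over all genes 19.4% were called higher and 14.5% lower, so that the share of this list called higher was close to that of all genes. This split moved with the scaling, to 3 higher and 8 lower without TMM factors, 2 higher and 10 lower on the FPKM as deposited, and 0 higher (3 at an unadjusted p under 0.05) and 10 lower by limma under quantile normalization. The calls over all genes under these scalings were 2349 higher and 1822 lower, 1678 and 2504, and 2242 and 1574. Among those that rose, Nnt, the mitochondrial proton-driven transhydrogenase that supplies NADPH in the matrix, measured 44.2, 38.5 and 42.2 FPKM in C26 against 15.6, 29.0 and 15.8 in control muscles. Its log2 fold change was 1.29 with an adjusted p of 0.0217 by limma, lost without C26 replicate 1 (0.078), C26 replicate 2 (0.0545) or Control replicate 1 (0.079). Txnrd2, the mitochondrial counterpart of Txnrd1, changed by 1.04 with an adjusted p of 0.0352, but was called in 2 of the 6 leave-outs only, those of C26 replicate 3 and Control replicate 2, and in 4 of the 8 alternatives. Prdx1, an abundant cytosolic peroxiredoxin, measured 229, 207 and 203 FPKM in C26 against 149, 145 and 144 in control muscles, a rise of 0.76 with an adjusted p of 0.0101. Under quantile normalization the log2 fold change of Prdx1 was 0.35 and not called (adjusted p = 0.0883). Prdx5, Prdx6 and Txn1 were the other genes called higher.

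Among those that fell, Sod3, the secreted superoxide dismutase, measured 2.66, 1.71 and 3.39 FPKM in C26 against 33.8, 12.7 and 7.35 in control muscles, a change of -2.11 on the log2 scale with an adjusted p of 0.0275 by limma. It was called without C26 replicate 3 and without Control replicate 3, and missed the threshold without C26 replicate 1 (0.0843), C26 replicate 2 (0.0886), Control replicate 1 (0.0557) or Control replicate 2 (0.0647). The 3 superoxide dismutase genes thus had estimates of 1.28, 0.17 and -2.11 for the cytosolic, mitochondrial and secreted enzyme. Gpx8, a peroxidase of the endoplasmic reticulum, changed by -1.72 with an adjusted p of 0.0051. Prdx4, the peroxiredoxin of the same compartment, changed by -0.94 with an adjusted p of 0.0163, lost without C26 replicate 2 (0.0572).

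Gpx1, the cytosolic glutathione peroxidase, was named after its values were seen. It measured 49.3, 54.7 and 49.2 FPKM in C26 against 118, 91.2 and 122.8 in control muscles, a change of -0.88 on the log2 scale with an adjusted p of 0.00633 by limma. The cytosolic and the secreted peroxidase therefore moved in opposite directions, and the untested ratio of Gpx3 to Gpx1 was 9.96, 5.50 and 6.95 in C26 and 1.37, 1.66 and 1.11 in control muscles. Selenow, Selenom and Park7 were the remaining genes called lower. The counts of this list moved with single muscles, to 1 higher and 3 lower without C26 replicate 1 or Control replicate 1, 1 higher and 4 lower without C26 replicate 2, 9 higher and 13 lower without C26 replicate 3, and 2 higher and 7 lower without Control replicate 3. The calls over all genes moved too, to 1127 higher and 669 lower without C26 replicate 1, 1151 and 726 without Control replicate 1, and 3311 and 2160 without C26 replicate 3. They were 1528 and 946 without C26 replicate 2, and 2230 and 1959 without Control replicate 3.

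Since heme oxygenase acts on heme, 20 genes of heme synthesis, heme breakdown and iron handling were examined, and all were listed. Of these 2 were called higher, 4 lower and 14 neither, with a median log2 fold change of 0.16, where 19.4% of all genes were called higher and 14.5% lower. Tfrc, the transferrin receptor that brings iron into cells, measured 1.49, 2.58 and 2.08 FPKM in C26 against 25.2, 17.0 and 15.6 in control muscles, a change of -2.71 on the log2 scale with an adjusted p of 0.00197 by limma. It was the largest fall among the genes named here and was called with each replicate left out. Blvrb, the flavin and biliverdin reductase B, changed by -1.48 with an adjusted p of 0.012, lost without Control replicate 1 (0.0502). Blvra, the enzyme that turns biliverdin from heme oxygenase into bilirubin, was named after its values were seen, and changed by -0.83 with an adjusted p of 0.00963. Ppox, an enzyme late in heme synthesis, changed by -0.89 with an adjusted p of 0.027 and was called in 1 of 6 leave-outs.

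Alas2, the first enzyme of heme synthesis in red cell precursors, measured 4.43, 3.60 and 8.18 FPKM in C26 against 1.80, 1.47 and 1.06 in control muscles, a rise of 1.67 on the log2 scale with an adjusted p of 0.0133 by limma. Hmox2, the constitutive heme oxygenase, was called with a log2 fold change of 0.54 and an adjusted p of 0.043, although its FPKM overlapped. It was called in 1 of 6 leave-outs and in 2 of the 8 alternatives, with a log2 fold change of 0.12 under quantile normalization (adjusted p = 0.541). Of 10 red blood cell markers 4 were listed, and their summed FPKM was 611 to 1179 in C26 and 328 to 507 in control muscles, with Hba-a1, Hba-a2 and Hbb-bs called higher. Ermap, the other listed marker, was not called, with a log2 fold change of -0.11. Red cells also hold RNA of Alas2, Cat and Sod1, and their part in these values was not tested. Without Control replicate 1, 1 of the 20 genes was called higher and 2 lower, and 1 was called higher without C26 replicate 1, Control replicate 2 or Control replicate 3. The calls over all genes were 1151 higher and 726 lower without Control replicate 1, and 1127 and 669 without C26 replicate 1. They were 2004 and 1402 without Control replicate 2, and 2230 and 1959 without Control replicate 3.

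**Figure D4:**
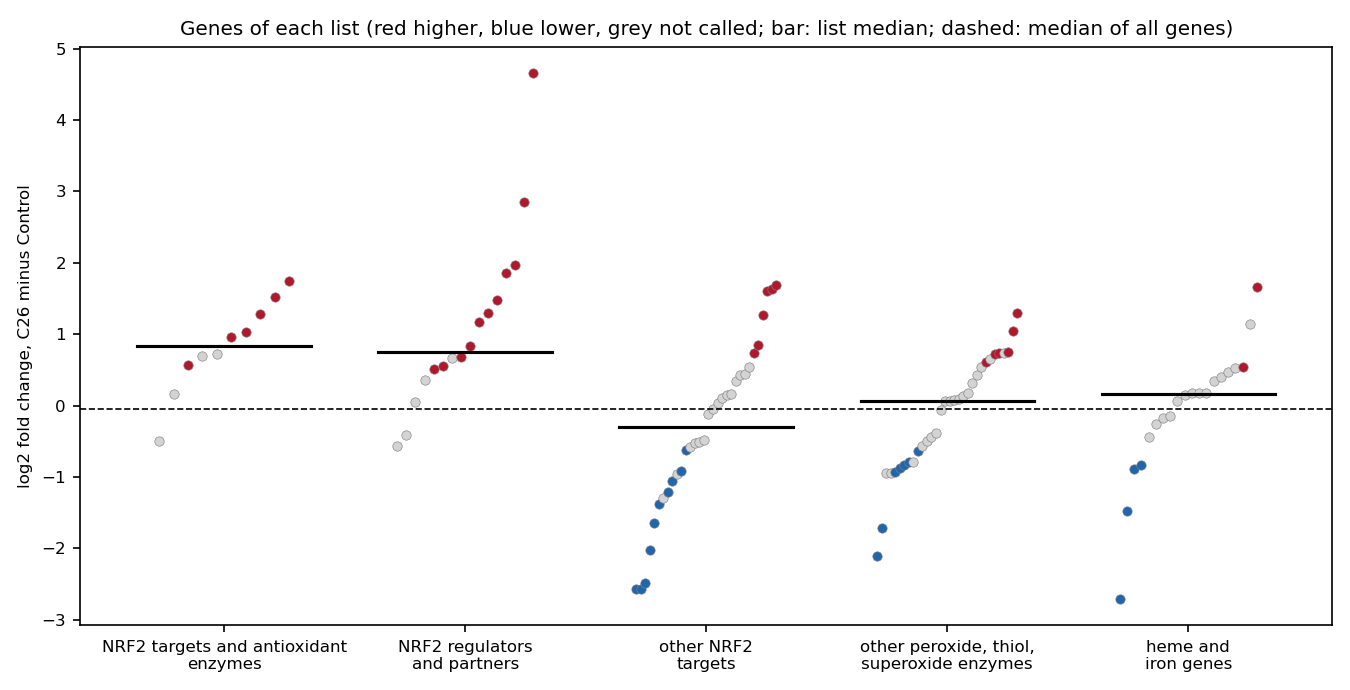
Log2 fold changes, C26 minus control, of every listed gene of the 5 gene lists, with genes called higher in red, called lower in blue and not called in grey, the list median as a bar and the median of all genes as a dashed line. The medians were 0.84 for the 10 genes and 0.75 for the regulators, against -0.30 for the other NRF2 targets, 0.061 for the peroxide, thiol and superoxide enzymes and 0.16 for the heme and iron genes.

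Immune cells also carry Hmox1, Sod2 and other genes of this group, so their markers were read in the same libraries. Of 12 macrophage markers 11 were listed and 0 were called by limma (2 higher and 1 lower at an unadjusted p under 0.05, and 0 by an ordinary linear model), with summed FPKM of 62.3 to 328 in C26 and 68.3 to 261 in control muscles. Under quantile normalization 1 was called higher. Cd68 made up 247 FPKM of the sum in C26 replicate 2, where C1qa and Csf1r measured 15.0 and 2.52. In C26 replicates 1 and 3 Cd68 measured 34.85 and 6.46 FPKM, also above every control, which measured 4.75, 1.75 and 5.77. The adjusted p of Cd68 was 0.0653 by limma. Of 10 neutrophil markers 4 were listed, with summed FPKM of 6.71 to 7.16 in C26 and 0.900 to 2.79 in control muscles, and S100a8 and S100a9 were called higher. Cxcr2 and Mmp9, the other listed markers, were not called, with log2 fold changes of -0.27 and 0.085. The 10 endothelial markers summed to 84.9 to 89.5 FPKM in C26 against 99.1 to 156 in control muscles, with 2 called lower. These sums are of FPKM before rescaling, and over all genes 19.4% were called higher and 14.5% lower. Control replicate 3, with its high Ptprc, also had the highest Lyz2 of the macrophage markers, at 188 FPKM against 23.1 to 44.1 elsewhere. The part of these cells in the values of the 10 genes was not tested. With C26 replicate 3 and Control replicate 3 left out together, chosen after the data were seen, 6 of the 10 genes were again called higher and 0 lower. The calls over all genes rose in this setting, to 3780 higher and 2805 lower from 2589 and 1932.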

How the data were processed

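Total RNA of gastrocnemius muscle was sequenced from 3 C26 and 3 Control samples. The deposited FPKM were made by the authors, who removed adaptor, low-quality and rRNA reads, aligned single-end reads with bowtie2 and estimated expression with RSEM. The methods name build GRCm38.p5, and the submitters' processing notes list mm9, HISAT2 2.0.4, Bowtie2 2.2.5 and RSEM 1.2.12 without roles. The extraction text in the labels names THP-1 cells beside muscle. All 13363 listed genes are above 0 in all 6 muscles. Symbols matched 13327 Entrez identifiers and not 36.

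FPKM were rescaled to a sum of 1e+06 per muscle, divided by unweighted TMM factors (trimming shares of 0.3 for log ratios and 0.05 for mean levels) and tested as log2(value + 1), which understates changes of low genes, with limma 3.58.1 in R 4.3.3 (two-sided, empirical Bayes) and Benjamini-Hochberg adjustment over all genes. The fit was tested on simulated data. The members and lists were chosen with earlier results of these data known. Named were the 10 genes, Keap1 and Bach1, up to 3 higher and 3 lower genes per list with the largest fold change, and the 3 genes most like Nfe2l2, with others marked where they stand and the remaining called genes of a list given by name only, except 1 regulator that is not reported here. Alternatives were a pseudocount of 0.1, a floor of 1 on the mean TPM, no TMM factors, the FPKM as deposited, quantile normalization, a replicate block, an intensity trend, an ordinary linear model and leaving out each replicate. Promoter windows were read in Python 3.11.15, and starts inside them from RefSeq and GENCODE.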

Additional observations from a re-analysis of the deposited data

How the results depend on the processing

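The 10 genes gave 5 to 7 genes higher and 0 lower under the 8 alternatives. The calls over all genes ran from 1525 to 2538 higher and from 959 to 2504 lower under the same alternatives. The 2538 were among the 11223 genes that passed the floor on the mean TPM. Of 555 values of named genes under an alternative, 480 kept their direction and side of the threshold, 70 lost the threshold, 2 gained it and 3 changed sign. The 3 were the log2 fold change of Sod2 on the FPKM as deposited (-0.048), under quantile normalization (-0.24) and without both replicates 3 (-0.090, an alternative chosen after the data were seen). With single replicates left out, Sod2 stayed positive, at 0.020 to 0.38. With each replicate left out in turn, 1127 to 3311 of all genes were higher and 669 to 2160 lower, the 10 genes gave 4 to 6 higher, the regulators 7 to 11 higher and 0 to 2 lower, the other targets 3 to 7 higher and 5 to 12 lower, the peroxide, thiol and superoxide enzymes 1 to 9 higher and 3 to 13 lower, and the heme and iron genes 1 to 2 higher and 2 to 4 lower.

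The FPKM as deposited gave 1678 genes higher and 2504 lower, 1 regulator lower, 2 peroxide enzymes higher and 1 heme gene higher. Quantile normalization gave 1 regulator lower, 0 peroxide enzymes higher by limma (3 at an unadjusted p under 0.05) and 1 heme gene higher. TPM without TMM gave 3 peroxide enzymes and 1 heme gene higher, and a pseudocount of 0.1 gave 1 heme gene higher. Over all genes, quantile normalization gave 2242 higher and 1574 lower, and TPM without TMM gave 2349 and 1822. With the pseudocount of 0.1 these calls were 2356 and 2255. The ordinary linear model gave 1525 genes higher and 959 lower, 5 other targets lower, 1 peroxide enzyme higher and 4 lower, and 0 heme genes higher (2 at an unadjusted p under 0.05, and 2 adjusted by limma) and 2 lower. Without both replicates 3, 3780 genes were higher and 2805 lower, and 2 regulators, 15 other targets and 14 peroxide enzymes were lower. The cause of these differences was not tested.

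The same-numbered C26 and control muscles did not deviate together, with correlations of -0.039, -0.084 and -0.11 for replicates 1, 2 and 3, and no C26 replicate correlated best with the control of its own number. The replicate block gave 1839 genes higher and 1235 lower, 3 peroxide enzymes lower and 1 heme gene higher, and the calls of Gclc (adjusted p = 0.0606), Nnt, Sod3, Prdx4, Hmox2, Ppox and Pgd were lost. With 3 muscles a group and no read counts, the error of low genes such as Gclc is not known.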
